A study of Mus musculus with 12 samples.

Results

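The dystrophin glycoprotein complex is the set of membrane and submembrane proteins that ties the actin cytoskeleton of a muscle fibre to the basement membrane around it. Genes of the complex were chosen by symbol, from a list of 8 (Dmd, Utrn, Dag1, Sgca, Sgcb, Sgcd, Sntb1 and Dtna). Of these, 7 had a row among the 10187 genes of the triceps brachii table, and Sntb1, which encodes beta-1-syntrophin, was not analysed here. All 7 passed the filter on low values, a mean of at least 10 normalized reads over the mice, that left 7247 genes for testing.

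The muscle was the triceps brachii of 12 male C57/BL6 mice, 3 in each of 4 groups that crossed activity with myostatin genotype. Inactive wild-type mice (IW) and inactive myostatin-reduced mice (IM) stayed in cages without wheels, while active wild-type mice (AW) and active myostatin-reduced mice (AM) had a running wheel for 12 weeks from 6 months of age and were then housed alone, so that wheel access and single housing cannot be told apart. All 12 mice, controls included, ate chow with 0.025% tamoxifen for 6 weeks before the wheels were given, and only mice with a floxed Mstn gene lost myostatin by the activated Cre recombinase. The promoter that drove Cre was not given in the sources used here, the sampled mice of both genotypes had been matched for running, and p-values measure the spread between these mice. As a check of the genotype, Mstn dropped by 84.2% with reduced myostatin (log2 change -2.66, SE 0.158, limma adjusted p = 1.29e-06).

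In a muscle fibre, dystrophin binds actin at its amino-terminal end and beta-dystroglycan near its carboxy-terminal end. Beta-dystroglycan spans the membrane and holds alpha-dystroglycan, whose sugar chains bind laminin, agrin and perlecan outside the cell. The sarcoglycans form a second membrane subcomplex beside dystroglycan, and the dystrobrevins and syntrophins join the complex on the inner side, where the syntrophins anchor neuronal nitric oxide synthase and ion channels. Loss of dystrophin causes Duchenne muscular dystrophy, loss of a sarcoglycan causes a limb-girdle muscular dystrophy, and utrophin, the autosomal relative of dystrophin, occupies the neuromuscular junction in adult muscle and can take the place of dystrophin along the membrane.

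Among the 7 genes, dystroglycan was the one that passed the test, and it did so in both main comparisons, near the threshold. Dag1 fell by 11.5% in active mice, where 14.5% of all genes tested were called, and rose by 15.8% in myostatin-reduced mice, where 5.78% were. The activity call was made in 8 and the genotype call in 11 of 22 alternative settings, and with a slow-fibre score in the model neither was made, at log2 differences of -0.13 instead of -0.18 and 0.18 instead of 0.21. Dmd, Utrn, Sgca, Sgcb, Sgcd and Dtna did not pass the test for activity or genotype. The read ratio of Utrn to Dmd averaged higher in active mice, but its exact permutation p was 0.06 once adjusted over activity and genotype. Outside the 7 genes, the sodium channel Scn4a and the filament protein synemin (Synm) fell in active mice.

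The sequence before the start site is shown for Dag1, the gene with a call, and for Sgca and Sgcb, the nearest genes to it in level, which had none. Each run is the 250 bases before the start that RefSeq gives (promoter table of build GRCm38.p6), found at a single place in the mm9 genome that the authors used, and written 5' to 3' on the gene's own strand. Capitals mark the E-box letters CANNTG, searched on both strands, the general binding letters of basic helix-loop-helix factors.
Dag1, chr9:108166290-108166539, minus strand: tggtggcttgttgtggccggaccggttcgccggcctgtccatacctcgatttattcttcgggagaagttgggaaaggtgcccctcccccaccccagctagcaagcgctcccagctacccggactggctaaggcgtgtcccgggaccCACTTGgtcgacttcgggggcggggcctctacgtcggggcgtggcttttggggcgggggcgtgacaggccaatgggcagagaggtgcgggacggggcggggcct
Sgca, chr11:94837642-94837891, minus strand: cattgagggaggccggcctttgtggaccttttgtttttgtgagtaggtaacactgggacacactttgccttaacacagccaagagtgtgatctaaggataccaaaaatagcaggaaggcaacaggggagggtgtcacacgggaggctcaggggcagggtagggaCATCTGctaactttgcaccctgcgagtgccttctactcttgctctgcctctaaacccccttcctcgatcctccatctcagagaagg
Sgcb, chr5:74038977-74039226, minus strand: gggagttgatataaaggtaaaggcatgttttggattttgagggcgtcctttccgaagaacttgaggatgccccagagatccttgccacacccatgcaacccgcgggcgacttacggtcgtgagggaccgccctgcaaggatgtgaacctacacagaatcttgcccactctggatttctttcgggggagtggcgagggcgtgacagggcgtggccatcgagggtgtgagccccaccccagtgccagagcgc
Dag1 and Sgca each held 1 E-box match and Sgcb held 0, where 66.2% of 32851 RefSeq windows of this length held at least 1. The GC box letters GGGCGG, also searched on both strands, were found at 3 places in the Dag1 window, at 1 place in that of Sgcb and at 0 in that of Sgca, against 32.7% of all windows with a match. TATAAA was found once in the Sgcb window and not in the others, and 12.4% of all windows held it. GC content was 67.6% for Dag1, higher than in 87.1% of windows, 58.4% for Sgcb and 52.8% for Sgca. These matches describe letters in the window and nothing about binding. A window was in the RefSeq table for 6 of the 8 listed genes.

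Values are normalized reads, set by the authors to a common trimmed mean in each library and not divided by gene length. Summed values were 927958 to 1080139 per mouse, which the step between low values placed at about 9023561 to 12184402 reads. A floor of 3 reads corresponded to 0.231 to 0.316 normalized reads, far below the lowest value of any of the 7 genes, 8.74 for Sgcd. Tests were limma fits on log2(value + 1) to all 7247 genes with Benjamini-Hochberg adjusted p-values, and genes with an adjusted p under 0.05 are termed called. Fold changes from log2(value + 1) understate those of low genes, which touches Sgcd and Utrn most.

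Levels of different genes were compared per kilobase of the longest coding transcript in the mm9 annotation. By mean normalized reads per kilobase over the 12 mice, the order was Sgca at 112.1 (range 99.5 to 126), Dag1 at 63.0 (49.9 to 75.7), Sgcb at 44.0 (39.2 to 48.2), Dtna at 15.5 (13.5 to 17.2), Dmd at 9.70 (8.06 to 11.2), Sgcd at 7.81 (3.57 to 12.4) and Utrn at 2.61 (2.12 to 3.40). In this order the ranges of neighbours did not overlap except for Dmd and Sgcd. Within single mice Dmd lay above Sgcd in 9 of 12, by 1.89 ± 1.89 normalized reads per kilobase (SD, n = 12). The place of Sgcd depended on the length used. With merged exons of all transcripts as the length, 8261 bases instead of 2450, Sgcd came to 2.32 normalized reads per kilobase, below Utrn at 2.44.

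**Figure D1:**
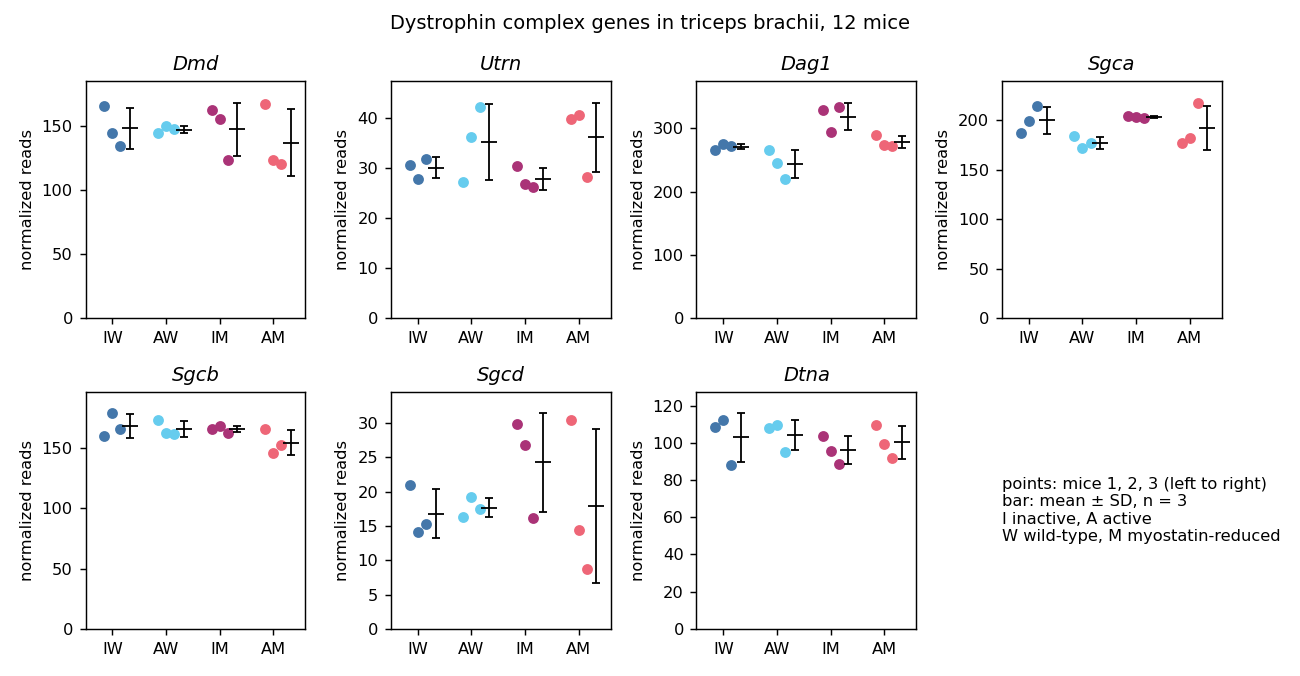
Normalized reads (vertical axes, starting at 0) of the 7 genes in each of the 12 mice, with the mean and SD of each group of 3 beside the points. Dag1 of the IM mice lies at 294 to 334, above the other groups, while the 3 AM points of Sgcd spread from 8.74 to 30.4.

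Dystrophin and utrophin make the cytoskeletal end of the complex. Dmd (chromosome X, 80194209 to 82451480, plus strand, mm9; 85 merged exon blocks) measured 165, 144 and 135 normalized reads in the IW mice and 144, 149 and 147 in the AW mice. In the IM mice it measured 162, 156 and 123, and in the AM mice 167, 123 and 120.2. All groups overlapped, and the highest and the lowest of the 12 values were both AM mice. Dmd differed by -0.06 on the log2 scale between active and inactive mice (95% interval -0.26 to 0.14, limma adjusted p = 0.705) and by -0.07 between myostatin-reduced and wild-type mice (95% interval -0.27 to 0.13, adjusted p = 0.726). With 1 mouse left out, the activity difference was -0.13 to -0.015 and the genotype difference -0.14 to -0.005.

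Utrn (chromosome 10, 12101986 to 12589163, minus strand; 77 merged exon blocks) measured 30.6, 27.8 and 31.9 normalized reads in the IW mice and 27.2, 36.3 and 42.1 in the AW mice. It measured 30.4, 26.9 and 26.3 in the IM mice and 39.8, 40.6 and 28.2 in the AM mice. The 4 highest values, from 36.3 to 42.1, were those of active mice, while 1 mouse of each active group lay among the inactive ones. Utrn differed by 0.27 on the log2 scale with activity (SE 0.111, 95% interval 0.03 to 0.51), and this did not pass the test (unadjusted p = 0.0286, limma adjusted p = 0.117). The difference between genotypes was -0.03 (95% interval -0.27 to 0.21, adjusted p = 0.897). The activity difference of Utrn passed without mouse AW1 (0.36, adjusted p = 0.0217), without mouse AM3 (0.36, adjusted p = 0.0329) and with sample weights (0.32, adjusted p = 0.0336). With a score of slow-fibre genes in the model it was 0.09 (adjusted p = 0.617), and adjusted p ranged from 0.0217 to 0.617 over the alternatives.

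The reads of Utrn relative to those of Dmd give, as a percent, a value for each mouse that library scaling does not touch. Utrn reads were 18.5%, 19.3% and 23.7% of Dmd reads in the IW mice (20.5% ± 2.77, SD, n = 3) and 18.8%, 24.3% and 28.6% in the AW mice (23.9% ± 4.88, SD, n = 3). They were 18.7%, 17.3% and 21.3% in the IM mice (19.1% ± 2.03, SD, n = 3) and 23.9%, 32.9% and 23.4% in the AM mice (26.7% ± 5.36, SD, n = 3). The AM mice lay above the IM mice without overlap, whereas the AW and IW mice overlapped. The log2 ratio that was tested took value + 1 for each gene, so that, unlike the percent, it can be touched by library scaling. Averaged over the genotypes, the log2 ratio was 0.33 higher in active than in inactive mice, with 0.20 in wild-type and 0.46 in myostatin-reduced mice (exact permutation test of the 12 mice within genotypes, two-sided p = 0.03, smallest possible p 0.005). With genotype the log2 ratio differed by 0.03 (two-sided p = 0.8 in the same exact test). Adjusted over the 2 comparisons, the exact permutation p was 0.06 for activity and 0.8 for genotype. Without mouse IW1, IW2, AW2, AW3, IM1, IM2 or AM2 the activity p was 0.05 to 0.085, and the difference stayed between 0.25 and 0.41 whichever mouse was left out.

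**Figure D2:**
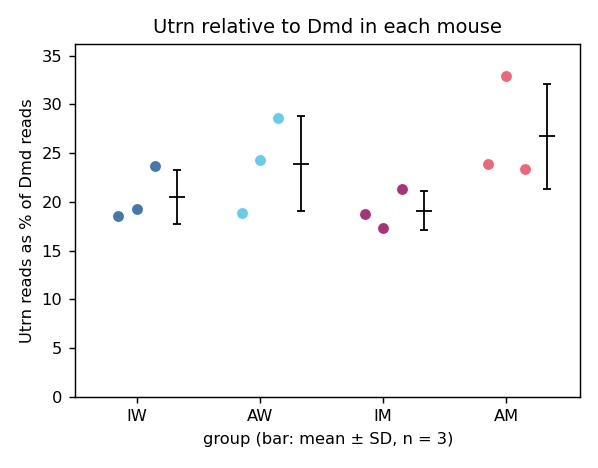
Utrn reads as a percent of Dmd reads (vertical axis) in each mouse, with the mean and SD of each group of 3. The AM mice, at 23.4% to 32.9%, lie above the IM mice, at 17.3% to 21.3%, and the AW mice overlap the IW mice.

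Dystroglycan is made from a single gene as one chain that is cut into the alpha and beta subunits. Dag1 (chromosome 9, 108108286 to 108166255, minus strand; 5 merged exon blocks) measured 266.5, 275 and 273 normalized reads in the IW mice (271 ± 4.25, SD, n = 3) and 265.6, 245 and 220.4 in the AW mice (244 ± 22.7, SD, n = 3). It measured 328, 294 and 334 in the IM mice (319 ± 22.0, SD, n = 3) and 289, 274 and 272 in the AM mice (278 ± 9.09, SD, n = 3). The 3 active mice lay below the 3 inactive mice in both genotypes, and the 3 myostatin-reduced mice lay above the 3 wild-type ones at both activity levels. Several of these gaps were narrow. The highest AW value was 265.6 and the lowest IW value 266.5, and the highest AM value was 289 and the lowest IM value 294. By genotype, the lowest AM value was 272, against the highest AW value of 265.6. Of all genes tested, 0.759% were free of overlap in all 4 of these comparisons.

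With activity, Dag1 fell by 0.18 on the log2 scale (SE 0.0534, 95% interval -0.29 to -0.06, limma adjusted p = 0.0453). With reduced myostatin it rose by 0.21 (SE 0.0534, 95% interval 0.10 to 0.33, adjusted p = 0.0385). The activity difference was -0.16 in wild-type mice (adjusted p = 0.353) and -0.19 in myostatin-reduced mice (adjusted p = 0.130), and the interaction was -0.03 (95% interval -0.27 to 0.20, adjusted p = 0.969). The genotype difference was 0.23 in inactive mice (adjusted p = 0.136) and 0.19 in active mice (adjusted p = 0.331), so that no comparison within a single level passed by itself. With 1 mouse left out, the activity difference was -0.22 to -0.09 in wild-type and -0.25 to -0.16 in myostatin-reduced mice. The genotype difference was then 0.19 to 0.29 in inactive and 0.12 to 0.26 in active mice. Both calls stood near the threshold. Leaving out any 1 of the 9 mice other than AW1, IM2 and AM1 lost the activity call, with differences of -0.18 to -0.14 (adjusted p from 0.0581 to 0.115). Leaving out any 1 of the 9 mice other than AW1, IM2 and AM2 lost the genotype call, with differences of 0.18 to 0.22 (adjusted p from 0.0591 to 0.1001). Over all 22 alternatives the direction of both differences stayed, with the activity call made in 8 and the genotype call in 11.

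Genes of slow fibres varied among the mice of a group. The summed level of 11 slow-fibre genes was 94.3 to 1370 normalized reads in the IW mice, 151 to 1831 in the AW mice, 78.3 to 112 in the IM mice and 117 to 1343 in the AM mice. With activity the fitted difference of all 11 was above 0, with a median of 1.80 on the log2 scale (from 1.04 to 2.68), and 1 of the 11 was called, against 14.5% of all genes. With reduced myostatin it was below 0 for all 11, with a median of -1.30 (from -1.97 to -0.11), and 0 were called by limma, against 5.78% of all genes, with 1 at an unadjusted p under 0.05, against 22.5%. These directions are opposite to those of Dag1 in both comparisons. With a score of these genes in the model, the activity difference of Dag1 was -0.13 (adjusted p = 0.197) and its genotype difference was 0.18 (adjusted p = 0.0781), and neither was called. In whole muscle, fewer cells of a type and less RNA per cell cannot be told apart.

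The sarcoglycans are single-pass membrane proteins that surround dystroglycan and steady it. Sgca, alpha-sarcoglycan (chromosome 11, 94824105 to 94837641, minus strand; 11 merged exon blocks), measured 187, 199 and 214 normalized reads in the IW mice, 184, 172 and 177 in the AW mice, 205, 203 and 202 in the IM mice and 177, 182 and 218 in the AM mice. The AW mice lay below the IW mice without overlap, while 1 AM mouse, AM3, held the highest value of all 12. The share of all genes with such a separation within a single genotype was not counted. Sgca differed by -0.13 with activity (95% interval -0.25 to -0.01) and did not pass (unadjusted p = 0.0422, limma adjusted p = 0.150). Without mouse AM3 the difference was -0.17 and passed (adjusted p = 0.0300), the 1 call in 22 alternatives, and with the slow-fibre score it was -0.058 (adjusted p = 0.583). Between genotypes Sgca differed by 0.07 (95% interval -0.05 to 0.19, adjusted p = 0.517).

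Sgcb, beta-sarcoglycan (chromosome 5, 74023988 to 74038983, minus strand; 6 merged exon blocks), varied least among mice of a group. It measured 159.9, 179 and 166 normalized reads in the IW mice, 173, 162 and 162 in the AW mice, 166, 168 and 163 in the IM mice and 166, 145 and 152 in the AM mice. The groups overlapped in each comparison. Its difference was -0.06 for activity (95% interval -0.16 to 0.04, adjusted p = 0.402) and also -0.06 for genotype (95% interval -0.16 to 0.04, adjusted p = 0.478).

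Sgcd, delta-sarcoglycan (chromosome 11, 46709755 to 47802471, minus strand; 13 merged exon blocks), was the gene whose values spread most. It measured 20.9, 14.2 and 15.3 normalized reads in the IW mice and 16.3, 19.2 and 17.5 in the AW mice. It measured 29.8, 26.7 and 16.2 in the IM mice and 30.4, 14.5 and 8.74 in the AM mice. The AM group held both the highest and the lowest of the 12 values, at about 362 reads in AM1 (95% Poisson interval 326 to 401) and 91 reads in AM3 (73.3 to 112). The differences of Sgcd were -0.23 for activity (95% interval -0.74 to 0.28, adjusted p = 0.540), 0.16 for genotype (95% interval -0.35 to 0.68, adjusted p = 0.739) and -0.63 for the interaction (95% interval -1.66 to 0.40, adjusted p = 0.890). With 1 mouse left out, the activity difference was -0.46 to -0.034 and the interaction -1.08 to -0.24. Within myostatin-reduced mice the activity difference was -0.54 (adjusted p = 0.326), and without mouse AM1 it was -0.996 and passed (adjusted p = 0.0246), while without mouse AM3 it was -0.15 (adjusted p = 0.792). These intervals leave room for changes of Sgcd larger than those of any other gene of the 7.

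Alpha-dystrobrevin binds dystrophin and the syntrophins on the inner side of the membrane. Dtna (chromosome 18, 23573916 to 23818215, plus strand; 31 merged exon blocks) measured 108, 112 and 88.1 normalized reads in the IW mice, 108, 109.8 and 95.1 in the AW mice, 104, 95.7 and 88.8 in the IM mice and 109.6, 99.2 and 92.0 in the AM mice. All groups overlapped. Active and inactive mice differed by 0.04 in Dtna (95% interval -0.11 to 0.20, adjusted p = 0.721), and the genotypes by -0.08 (95% interval -0.23 to 0.08, adjusted p = 0.585).

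Counted together, 1 of the 7 genes was called for activity, in the lower direction, where 14.5% of all genes tested were called and 6.51% were called lower. This share, 14.3%, is near that of all genes. At an unadjusted p under 0.05 there were 3 of the 7 (Dag1, Utrn and Sgca), against 30.2% of all genes. For genotype 1 of the 7 was called, in the higher direction, where 5.78% of all genes were called and 3.57% were called higher, and the same gene, Dag1, was the 1 of the 7 with an unadjusted p under 0.05, against 22.5% of all genes. The median log2 difference of the 7 genes was -0.06 with activity, against -0.02 over all genes tested, and -0.03 with genotype, against a median under 0.01 in size over all genes. For the interaction 0 of the 7 were called, with 0 at an unadjusted p under 0.05, where 0.0% of all genes were called and 4.1% had an unadjusted p under 0.05. Calls in both main comparisons were made for 1.38% of all genes, and for 0.773% with activity lower and genotype higher as for Dag1.

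**Figure D3:**
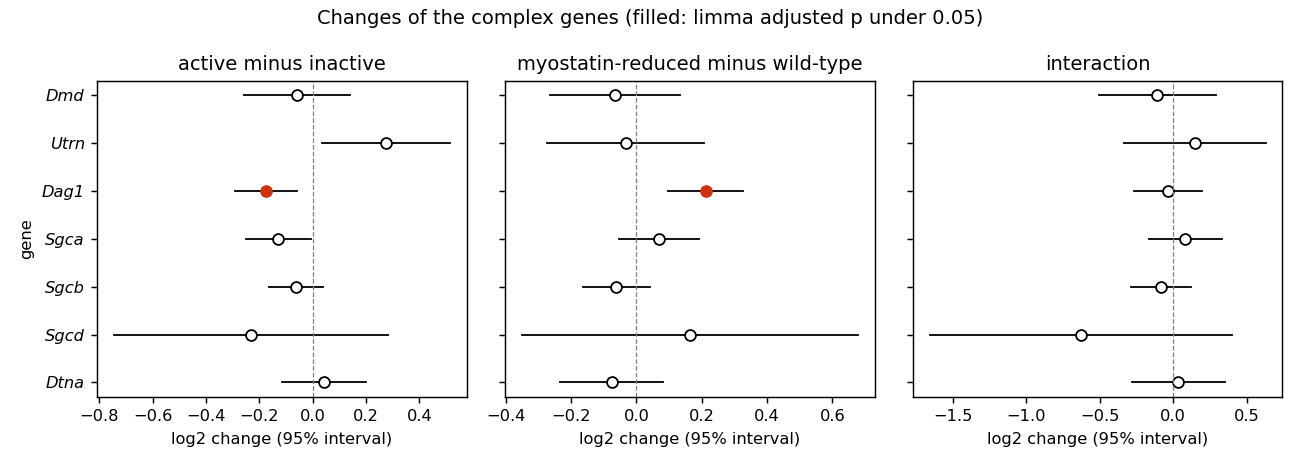
Log2 differences of the 7 genes (horizontal axes) with their 95% intervals for active minus inactive mice, myostatin-reduced minus wild-type mice and the interaction; filled points have a limma adjusted p under 0.05. Dag1 is filled at -0.18 for activity and 0.21 for genotype, and the intervals of Sgcd are the widest in each panel.

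Within a single genotype or activity level, 0 of the 7 genes were called in any of the 4 comparisons by limma. The shares of all genes called were 0.0276% for activity in wild-type mice, 7.84% for activity in myostatin-reduced mice, 2.51% for genotype in inactive mice and 0.207% for genotype in active mice. At an unadjusted p under 0.05 the 7 genes gave 0, 2, 1 and 1 in the same order, against 14.7%, 26.2%, 17.4% and 12.3% of all genes. The 2 in myostatin-reduced mice were Utrn, at 0.35, and Dag1, at -0.19, and the gene at both genotype comparisons was Dag1.

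The genes also differed in how much they varied among mice of the same group. The within-group SD on the log2 scale was 0.50 for Sgcd, 0.22 for Utrn, 0.18 for Dmd and 0.14 for Dtna, above the median of 0.12 over all genes tested. It was 0.10 for Sgca, 0.09 for Dag1 and 0.07 for Sgcb, below that median. Over the 12 mice Dmd and Sgcd varied together (Pearson r = 0.845, Spearman rho = 0.93), Dmd and Dtna less so (r = 0.631, rho = 0.531), and Utrn and Sgca in opposite directions (r = -0.679, rho = -0.566). The other pairs of the 21 lay between r = -0.588 and r = 0.529. All genes of a mouse share a library, a depth and a sampled piece of muscle, so these coefficients describe the libraries and carry no test.

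The 3 genes whose log2 values followed each of the 7 most closely over the 12 mice, by Pearson r among all genes tested, were as follows. For Dmd they included Ube3a (r = 0.958) and Arhgap5 (0.938), and for Sgcd they were Zbed6 (0.971), Sbno1 (0.971) and Vps13d (0.962). For Dag1 they were Ky (0.938), Tmod1 (0.934) and Ap2a2 (0.932). For Utrn they were Snap47 (0.924), Dennd5a (0.917) and Acad12 (0.897), for Sgca they were Chmp4b (0.934), Ccnk (0.922) and Ppp1r15a (0.919), for Sgcb they were Mphosph10 (0.928), Ptpn11 (0.924) and Mff (0.907), and for Dtna they included Rngtt (0.924) and Msi2 (0.866). Spearman rho of the pairs named was between 0.804 and 0.958. Picked as the highest among all genes tested over 12 libraries, such values are high by selection.

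A further 64 genes of the complex and its surroundings were read from the same fit, and 53 had a row and 45 were tested. With activity, 6 of the 45 were called (13.3%, near the 14.5% of all genes called), and the median log2 difference was -0.07. All 6 were lower, where 6.51% of all genes were called lower and 7.99% higher. With genotype, 1 of the 45 was called, lower (2.22%, against 5.78% of all genes called and 2.21% called lower), and the median was 0.03. For the interaction 0 were called by limma. At an unadjusted p under 0.05 there were 13 of the 45 for activity, 14 for genotype and 2 for the interaction, against 30.2%, 22.5% and 4.1% of all genes.

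Among other subunits of the complex 1 was tested. Sspn, sarcospan, differed by -0.15 with activity (adjusted p = 0.0697), and its genotype difference was -0.10 (adjusted p = 0.303). Sgce, Sntb2 and Dtnb had means of 5.98, 3.96 and 4.55 normalized reads and were not tested.

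Of 5 signalling and channel partners tested, 2 were called with activity, both lower, where 14.5% of all genes were called and 6.51% called lower. Nos1, the neuronal nitric oxide synthase that syntrophin holds at the membrane, measured 97.9, 92.2 and 83.4 normalized reads in the IW mice, 73.0, 75.7 and 70.1 in the AW mice, 78.1, 65.3 and 68.6 in the IM mice and 63.9, 73.4 and 61.6 in the AM mice. The IW mice stood above all others, a pattern whose share over all genes was not counted. With activity Nos1 fell by 0.20 (adjusted p = 0.0488, called in 8 of 22 alternatives), and with reduced myostatin it fell by 0.25 (adjusted p = 0.0384, called in 13 of 22). Both calls stood near the threshold, as those of Dag1 did. The activity difference of Nos1 was -0.32 in wild-type and -0.09 in myostatin-reduced mice. Its genotype difference was -0.36 in inactive and -0.14 in active mice. None of these passed by itself (limma adjusted p from 0.0542 to 0.564), nor did the interaction, at 0.22 (adjusted p = 0.890). Scn4a, the voltage-gated sodium channel of skeletal muscle, measured 815 to 841 normalized reads in the IW mice, 602 to 694 in the AW mice, 843 to 914 in the IM mice and 686 to 732 in the AM mice. It fell by 0.34 with activity (SE 0.0485, adjusted p = 0.00179) and was called in all 22 alternatives, at -0.37 to -0.29.

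Of 6 cytoskeletal partners tested, 2 were called lower with activity, as were 2 of 11 genes of parallel adhesion and membrane repair. Of all genes 14.5% were called for activity, and 6.51% were called lower. Synm, the intermediate filament protein synemin, fell by 0.49 (SE 0.0801, adjusted p = 0.00280), from 2053 to 2467 normalized reads in the IW mice and 2132 to 2357 in the IM mice to 1517 to 1905 in the AW mice and 1308 to 1628 in the AM mice. It was called in all 22 alternatives. Ank3, an ankyrin that helps place dystrophin and dystroglycan at the membrane, fell by 0.29 (adjusted p = 0.0234), with 16 of 22 alternatives calling it. Of the adhesion and repair genes, Tln2, talin 2, fell by 0.23 with activity (adjusted p = 0.0123, called in 21 of 22) and Dysf, dysferlin, by 0.26 (adjusted p = 0.0188, called in 18 of 22). The other 9 of these genes, which include the laminin receptor integrin alpha-7, were not called.

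The 10 basement membrane ligands, laminin chains among them, gave no call for activity or genotype, with log2 differences from -0.14 to 0.42 and from -0.27 to 0.17. The 12 genes of dystroglycan glycosylation, which build the sugar chains on Dag1 that bind laminin, gave none either, with differences from -0.22 to 0.07 for activity and from -0.04 to 0.26 for genotype. At an unadjusted p under 0.05, 2 of the 10 ligand genes and 0 of the 12 glycosylation genes were found for activity, against 30.2% of all genes, and 0 and 4 for genotype, against 22.5% of all genes. In the same order of comparisons there were 3 and 6 of the 11 adhesion and repair genes, 4 and 2 of the 6 cytoskeletal partners and 3 and 2 of the 5 signalling and channel partners.

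**Figure D4:**
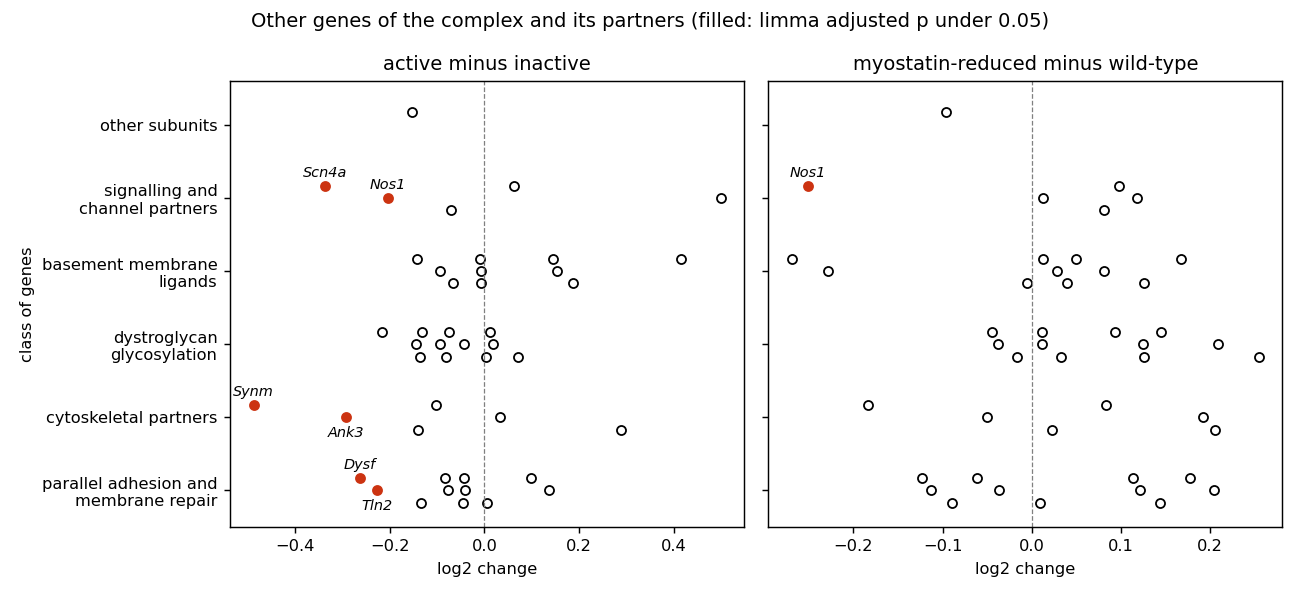
Log2 differences (horizontal axes) of the 45 further genes tested, in 6 classes, for active minus inactive mice and for myostatin-reduced minus wild-type mice; each point is a gene and filled points have a limma adjusted p under 0.05. The 6 filled points for activity lie between -0.49 and -0.20, and the filled point for genotype is Nos1 at -0.25.

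Markers of other cells moved with activity beside these results. Of 7 endothelial genes tested, 4 rose with activity, where 7.99% of all genes were called higher. The summed level of these and Cldn5, which was not tested, was 297 to 404 normalized reads in the IW mice, 298 to 511 in the AW mice, 278 to 305 in the IM mice and 354 to 580 in the AM mice. Of the fast-fibre genes 3 of 6 were called for activity (1 higher and 2 lower), of the slow-fibre genes 1 of 11 and of the adipocyte genes 1 of 2, both higher, against 14.5% of all genes called in either direction. The smooth muscle and pericyte (6), fibroblast (7), macrophage (2), Schwann cell and nerve (3) and satellite cell (1) genes gave no call. No regenerating-fibre gene was tested, and their summed level was 14.7 to 24.96 normalized reads. For genotype 1 of the 6 fast-fibre genes was called, against 5.78% of all genes, and none of the other lists had a called gene, the slow-fibre list included, whose 11 differences all lay below 0. The fast-fibre sum, 104300 to 162100 normalized reads, far exceeded the slow-fibre sum in each mouse. The part of these cell types in the differences of Dag1 and Utrn was not tested. The genes of the slow-fibre score themselves differed in 1 direction with each factor, so the fit with that score cannot tell their part apart.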

How the data were processed

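Polyadenylated RNA was sequenced by the authors in single-end reads of 65 bases, which were mapped to mm9 with CASAVA (version not given in the sources used here), counted in RefSeq exons and summed to genes. The values deposited are a signal (normalized reads of each gene), for which the authors set the trimmed mean of each library equal, leaving out the highest and lowest 5 percent. All 12 columns were matched to samples by name and none was left unused.

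Values were tested as log2(value + 1) with limma 3.58.1 (R 4.3.3) for genes with a mean of at least 10, by lmFit with a mean for each of the 4 groups, contrasts.fit and a trended eBayes, with Benjamini-Hochberg adjustment over 7247 genes. Single values were tested by exact permutation of mice. Whole multiples of the step of a single read (tolerance 0.006) made up 89.0% to 91.2% of values under 5 but 67.3% to 69.8% of values from 20 to 50, so whole reads were not recovered and no count test was run. Poisson intervals and floors cover counting error alone, while the intervals of log2 differences come from the limma fits and cover the spread between mice. Strand use in the counting was not given in the sources used here, and reads shared by related or overlapping genes could have been split.

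Named were the listed genes, Mstn, called genes of the wider list and the 3 genes most like each listed gene. Some genes under this rule are not reported here and were left out of the wider list and its counts. The genes, lists and tests were chosen with earlier results of these data known. Alternatives were other pseudocounts, filters, scalings, sample weights, eBayes without a trend, a replicate block, a slow-fibre score, group medians for the Utrn to Dmd ratio, and each mouse left out.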

Additional observations from a re-analysis of the deposited data

How the results depend on the processing

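The count of the 7 complex genes called for activity, 1 with the settings of the report, was 0 without a filter on low values, with upper-quartile scaling, without a trend in eBayes and with the slow-fibre score, and 2 with sample weights. The count for genotype, 1, was 0 without a trend and with the slow-fibre score. With 1 mouse left out, the counts were 0 to 2 for activity, 0 to 1 for genotype and 0 to 1 for activity in myostatin-reduced mice. Calls in the wider list went from 6 to 10 (sample weights) or 2 (slow-fibre score) for activity and from 1 to 2 (sample weights) or 0 (slow-fibre score) for genotype, with 4 to 8 and 0 to 2 when 1 mouse was left out (genotype: 0 without IW1, IW2, AW2, AW3, IM2, IM3 or AM3, and 2 without AW1 or AM1). Over all genes, calls went from 1051 to 1740 (sample weights) or 401 (slow-fibre score) for activity and from 419 to 272 (a mean of at least 50) for genotype, with 552 to 1485, 180 to 579 and, for the interaction, 0 to 1 (1 without mouse IW3) when 1 mouse was left out. Calls over all genes fell by over 1.5 times for activity without IW2 (582), AW2 (596), AW3 (552), IM3 (655) and AM2 (609), and for genotype without IW1 (203), AW2 (227), AW3 (180), IM1 (214), IM3 (203) and AM3 (245). A mean of at least 50 left Utrn and Sgcd untested. The cause of these moves was not tested. A stricter filter also left fewer genes to test, and leaving out a mouse left fewer mice in the fit.

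The replicate numbers 1 to 3 in the titles name different mice, and over the 18 same-numbered pairs the correlation of deviations ranged from -0.605 to 0.484, with 9 over 0.1, so the numbers were not taken to pair the mice over the 4 groups. Between the IM and AM mice all 3 pairs were over 0.1 (0.236, 0.171 and 0.322). A block of the number among these mice alone, chosen after seeing the data, left 0 of the 7 genes called for activity in myostatin-reduced mice, the lowest limma adjusted p being 0.0773 (Sgcd), with 628 calls over all genes against 568 without it. With the replicate number as a block, 0 of the 7 genes were called for activity (Dag1 -0.18, limma adjusted p = 0.0513) and 1 for genotype (Dag1 0.21, adjusted p = 0.0496), with 7 and 2 calls in the wider list and 1082 and 364 over all genes.

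The Utrn to Dmd log2 ratio was 0.33 higher with activity by group medians too, with an exact permutation p of 0.08, and 0.25 to 0.41 higher with 1 mouse left out. Its genotype difference was -0.039 by group medians and -0.045 to 0.10 with 1 mouse left out.

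Of 1064 differences recomputed for the 7 genes in all comparisons, 989 stayed in direction and call, 25 lost the call, 5 gained one and 45 changed direction, and none of those 45 was called. Among the values in the report these were the interaction of Dag1, 0.018 with sample weights and -0.11 to 0.029 with 1 mouse left out, the genotype difference of Utrn, 0.10 with the slow-fibre score and -0.12 to 0.050 with 1 mouse left out, the genotype difference of Sgcd, -0.062 to 0.36, and the activity difference of Dtna, -0.011 to 0.076, with 1 mouse left out. Leaving out 1 mouse leaves a group of 2, assumed to vary like the others, and the spread of Sgcd and Utrn among mice of a group limits what can be said of them.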
